A study of Saccharomyces cerevisiae with 14 samples.

Results

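Rad52 peaks were examined at the independently transcribed small nucleolar RNA (snoRNA) genes of budding yeast, Saccharomyces cerevisiae. These are the nuclear snoRNA genes of the RefSeq annotation (assembly R64, the sacCer3 build) that do not lie inside a protein-coding gene, leaving out SNR52 and the SNR72 to SNR78 cluster. The rule kept 60 of 76 nuclear snoRNA genes, out of 6431 nuclear genes in all. By class, 32 genes were of box C/D, 27 were of box H/ACA, and SNR39B was left unclassed. Rad52 mediates homologous recombination and accumulates where DNA is broken, and its chromatin immunoprecipitation served in the study as a readout of damage from DNA-RNA hybrids.

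Box C/D snoRNAs guide 2′-O-methylation of ribosomal RNA and box H/ACA snoRNAs guide its pseudouridylation, while a few of each class are needed to cut the ribosomal RNA precursor. In yeast most are made from their own RNA polymerase II promoters. Their transcription is ended by the complex of Nrd1, Nab3 and the helicase Sen1, which acts on short noncoding transcripts, and without Sen1 the polymerase is known to run on into the sequence downstream. Sen1 also unwinds DNA-RNA hybrids, RNase H digests the RNA in them, and the topoisomerase Top1 relaxes the supercoils left by transcription.

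In all there were 14 libraries in 8 groups. Top1-AID has 1 library, while WT, Sen1-AID, h1D-h2D Top1-AID, h1D-h2D and h1D-h2D Sen1-AID have 2 libraries each; all 11 come from the background labelled 288C and received 0.5 µM auxin for 4 h, WT included. AID marks an auxin-inducible degron, so that auxin depletes the tagged protein. The name h1D-h2D was taken to mean loss of RNH1 and RNH201, the RNase H genes that the series names. The h1D-h2D Top1-AID libraries carry AID in their titles and only Top1 in the genotype field. Gal-HO strains of the JKM background make the HO endonuclease in galactose; 2 libraries had 2% galactose and 1 had dextrose, and none of the 3 is labelled as auxin-treated. No library without an antibody or from the h1D-h2D strain without auxin was analysed here. The combined mutants are h1D-h2D Top1-AID and h1D-h2D Sen1-AID.

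Each library is a list of peaks, from 254 to 731 on the nuclear chromosomes, and read depth is unknown. The combined mutants had the shortest lists, at 254 to 305 peaks, against 454 to 731 in the other auxin libraries. A gene was called covered where a peak overlapped it by at least 1 bp. Downstream reach is the distance in bp from the gene's 3′ end to the far end of that peak, by strand, and upstream reach is the same at the 5′ end. The labels do not state whether replicates came from separate cultures, and the p-values measure only the spread between these libraries, which may be technical. Neighbouring members can lie under the same peak, and the 60 genes formed 52 peak regions in WT.

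Peaks at many snoRNA genes ran further downstream where Sen1 was depleted. Of the 23 members with a peak in all 11 auxin libraries, 14 reached further downstream in the 4 Sen1-depleted libraries than in the other 7, and none was called shorter; at an unadjusted p under 0.05, 0 members were shorter, where 3.57% of all genes were. These 14 members stand for 11 of 18 peak regions. Over all 224 genes with a peak in all 11 libraries, 49 were called longer, which is 21.9%, against 60.9% of the tested members. By peak region, 26 of 104 were called. The 49 include the 14 members and 8 other genes that share every peak with a called member. They also include the 7 genes SNR72 to SNR78, under 1 peak. The median difference was 728 bp over the tested members and 108 bp over all tested genes. Each of the 14 had an adjusted p of 0.0194 in an exact two-sided permutation test over 330 splits of 4 against 7, with Benjamini-Hochberg adjustment over the 224 genes. Their unadjusted p of 0.00303 is the smallest these splits can give. The other 37 members lacked a peak in at least 1 auxin library and were not tested.

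Without h1D-h2D Sen1-AID replicate 1 or without its replicate 2, no gene passed the adjusted threshold; SNR10 then had adjusted p-values of 0.0553 and 0.0564 by the same exact permutation test, where the smallest possible unadjusted p is 0.00833. The differences themselves remained. Over all 11 ways of leaving out a library, SNR10 differed by 1913 to 3377 bp, SNR3 by 911 to 1021 bp and SNR51 by 709 to 849 bp. With the median reach of all covered genes subtracted in each library, 8 members in place of 14 stayed past the threshold, namely SNR10, SNR128, SNR190, SNR66, SNR3, SNR41, SNR51 and SNR70.

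SNR10 (VII 345986–346230, plus strand), a box H/ACA RNA that takes part in pre-rRNA processing, had the largest difference. Its downstream reach was 1574 and 1253 bp in Sen1-AID and 5166 and 5645 bp in the h1D-h2D Sen1-AID strain. In the other auxin libraries it was 825 and 781 bp in WT, 783 and 770 bp in h1D-h2D, 713 bp in Top1-AID, and 696 and 692 bp in the h1D-h2D Top1-AID strain. The groups did not overlap, and the h1D-h2D Sen1-AID libraries stood far above the Sen1-AID libraries. The mean was 3409.5 ± 2317 bp (SD, n = 4) with Sen1 depleted and 751 ± 51.2 bp (SD, n = 7) without, a difference of 2658 bp. The stretch that both h1D-h2D Sen1-AID libraries added measured 4383 bp and lay over MAD1, a spindle checkpoint gene, as well as LCL3 and GUP1.

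SNR128 (X 139566–139691, minus strand) encodes U14, which is required for maturation of the small-subunit ribosomal RNA. Its downstream reach was 4149 and 1567 bp in Sen1-AID and 3949 and 2017 bp in the h1D-h2D Sen1-AID strain. It was 815 and 769 bp in WT, 816 and 735 bp in h1D-h2D, 775 bp in Top1-AID, and 771 and 680 bp in the h1D-h2D Top1-AID strain. The lowest Sen1-depleted library therefore stood well above the highest of the other 7. The means were 2920.5 ± 1318.5 bp (SD, n = 4) and 766 ± 47.2 bp (SD, n = 7). SNR190, which is made from the same precursor, lies under the same peak and had the same difference of 2155 bp.

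SNR66 (XIV 586090–586175, plus strand), a box C/D methylation guide, showed a narrower separation. Its downstream reach was 1769 and 1436 bp in Sen1-AID, 2444 and 2647 bp in the h1D-h2D Sen1-AID strain, and 1308 and 1396 bp in WT. It was 948 and 716 bp in h1D-h2D, 811 bp in Top1-AID, and 874 and 706 bp in the h1D-h2D Top1-AID strain. WT and Sen1-AID lay close together at this gene, with Sen1-AID replicate 2 only 40 bp beyond the farther WT library. The means were 2074 ± 567 bp (SD, n = 4) and 966 ± 278 bp (SD, n = 7).

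SNR3 (X 663749–663942, plus strand), a box H/ACA guide, had similar reach in both Sen1-depleted strains. It measured 1983 and 1653 bp in Sen1-AID and 1980 and 1821 bp in the h1D-h2D Sen1-AID strain. The other 7 libraries held 740 to 980 bp, with 961 and 932 bp in WT. The means were 1859 ± 157 bp (SD, n = 4) and 907 ± 87.4 bp (SD, n = 7), a difference of 952 bp. The added stretch lay over EFM3 and STR2 on the opposite strand.

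**Figure D1:**
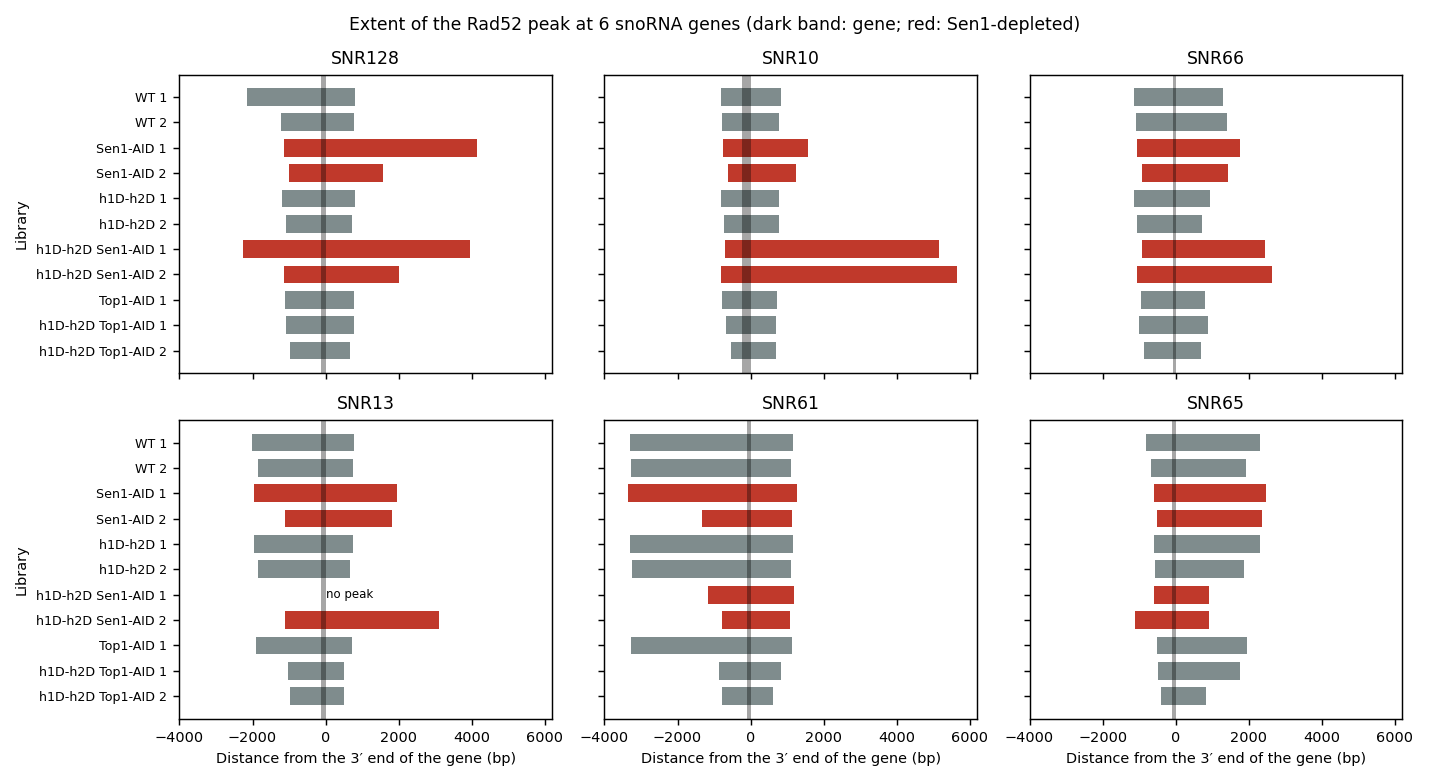
Extent of the Rad52 peak at 6 snoRNA genes in the 11 auxin libraries, as distance in bp from the 3′ end of the gene, with downstream to the right; the dark band is the gene, red bars are Sen1-depleted libraries and grey bars the others. At SNR10 the red bars end 1253 to 5645 bp past the gene and the grey bars 692 to 825 bp past it, while at SNR65 the h1D-h2D Sen1-AID bars end at 901 and 903 bp, short of WT.

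The tricistronic transcript of SNR41, SNR70 and SNR51, all methylation guides, lies under a single peak. Measured from SNR51, the last gene of the transcript, downstream reach was 1658 and 1474 bp in Sen1-AID and 1287 and 1238 bp in the h1D-h2D Sen1-AID strain. The other 7 libraries held 501 to 712 bp, so the groups did not overlap. The difference was 790 bp at each of the 3 genes. Both Sen1-AID libraries reached beyond both h1D-h2D Sen1-AID libraries here, the reverse of the order at SNR10.

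SNR60 (X 349130–349233, minus strand), a methylation guide, followed the same order. Its downstream reach was 2313 and 1855 bp in Sen1-AID, 1031 and 1060 bp in the h1D-h2D Sen1-AID strain, and 536 to 783 bp in the other 7. At SNR47, a methylation guide on chromosome IV, the corresponding values were 1676 and 1502 bp, 1063 and 1062 bp, and 562 to 812 bp. Sen1 depletion alone therefore gave the longer peaks at both genes. SNR49, a box H/ACA guide, measured 1913 and 1287 bp in Sen1-AID and 1317 and 1451 bp in the h1D-h2D Sen1-AID strain, against 584 to 904 bp elsewhere. SNR71, a methylation guide, measured 1701 and 1311 bp, then 1086 and 1026 bp, against 657 to 770 bp. SNR37 and SNR80 are box H/ACA guides and complete the 14, with differences of 561 and 355 bp. At both, the lowest Sen1-depleted library stood above the highest of the other 7.

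Of the 9 tested members that did not pass, SNR40 came nearest, with a difference of 198 bp and an adjusted p of 0.0768 by the exact permutation test. SNR48 and SNR32 had differences of 1478 and 793 bp with overlapping groups. SNR48, a methylation guide, ranged from 1333 to 5867 bp with Sen1 depleted and from 636 to 3345 bp without. SNR57, SNR55 and SNR61, methylation guides made as a single precursor, share their peak and had a difference of 157 bp. That difference turned to −65.1 bp with the library median subtracted. At SNR61, WT held 1151 and 1117 bp, Sen1-AID 1270 and 1144 bp, and h1D-h2D Sen1-AID 1193 and 1069 bp, so these groups overlapped.

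SNR56, SNR63 and SNR65, all box C/D, had the most negative differences, at −262, −257 and −191 bp, none past the threshold. At SNR65 (chromosome III), downstream reach was 2318 and 1935 bp in WT, 2476 and 2370 bp in Sen1-AID, and 2315 and 1856 bp in h1D-h2D, then 901 and 903 bp in the h1D-h2D Sen1-AID strain. Both h1D-h2D Sen1-AID libraries thus lay below every WT and h1D-h2D library. The h1D-h2D Top1-AID libraries, at 1761 and 842 bp, also lay below both h1D-h2D libraries. The pooled difference at SNR65 turned positive, to 62.9 and 62.2 bp, without h1D-h2D Sen1-AID replicate 1 or 2. At SNR63, h1D-h2D held 1802 and 1342 bp, h1D-h2D Sen1-AID 879 and 930 bp, and h1D-h2D Top1-AID 949 and 788 bp. At SNR56 the same strains held 2017 and 1656 bp, 1125 and 1344 bp, and 1610 and 1174 bp. At these 3 genes both combined mutants were therefore below h1D-h2D.

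The gene next downstream of SNR56, SNR63 and SNR65 encodes a ribosomal protein (RPS8A, RPL31A and RPS14A). This grouping was chosen after the values were seen. In all, 6 members have a ribosomal protein gene next downstream, the others being SNR32 beside RPL42B, SNR39B beside RPL7A, and SNR189, which lies beside SNR65. In h1D-h2D Sen1-AID against h1D-h2D, the 4 that could be measured all had shorter reach, against 1 of 26 for the other members, SNR45. Over all 428 measured genes, 22.9% were shorter. In h1D-h2D Top1-AID against h1D-h2D, all 5 that could be measured were shorter, against 11 of 27 for the other members. Here 50.5% of all 408 genes were shorter. Upstream reach of ribosomal protein genes was itself shorter, in 44 of 48 in the first contrast and 42 of 53 in the second. Over all genes 44.6% and 61.5% were shorter upstream in these contrasts. Whether the neighbour bears on the members' reach was not tested. At SNR56, SNR63 and SNR65, whose neighbours lie on the opposite strand, the end measured is also the neighbour's upstream end. In Sen1-AID against WT, 1 of these 6 lay above both WT libraries and 2 lay below, while 33 of the other 46 members measured lay above and 2 below. Of all 895 measured genes, 18.4% lay above and 18.4% below.

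Sen1 depletion with RNase H present was compared in Sen1-AID against WT. With 2 libraries in each group an exact test cannot go below p = 0.333, so genes were counted where both libraries of the first group lay beyond both of the other. Downstream reach lay above WT in 34 of 52 measured members, or 65.4%, where 18.4% of all 895 measured genes did. It lay below WT in 4 members, SNR189, SNR39B, SNR17B and SNR45, or 7.69%, where 18.4% of all genes did. By region, 30 of 44 lay above. The count of members above WT was 34 to 47 when any of the 4 libraries was left out. Without Sen1-AID replicate 2, the shorter list with the lower medians, 51.4% of all genes lay above WT as well. The count below WT was 13 without Sen1-AID replicate 1 and 7 without WT replicate 2, with no share of all genes computed beside it.

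Both classes of snoRNA took part. Of the measured box C/D genes 18 of 30 lay above WT, and of the box H/ACA genes 16 of 21. Among intronic snoRNA genes, whose RNA is cut from a host mRNA, 1 of 7 did. For tRNA genes, read by RNA polymerase III, the count was 53 of 195, for protein-coding genes 68 of 623, and for ribosomal protein genes 5 of 97. All 7 genes of the SNR72 to SNR78 cluster lay above WT, under a single peak, but by little. Their median reach was 1297 and 1293 bp in WT and 1439 and 1302 bp in Sen1-AID. The median difference was 75.5 bp there, 523 bp over the box C/D members and 744 bp over the box H/ACA members.

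SNR13 (IV 1402919–1403042, plus strand), a methylation guide long used with its neighbour TRS31 to follow read-through, was among the 34. Its downstream reach was 781 and 742 bp in WT and 1943 and 1819 bp in Sen1-AID. It was 751 and 658 bp in h1D-h2D, 712 bp in Top1-AID, 501 and 506 bp in the h1D-h2D Top1-AID strain, and 3112 bp in the h1D-h2D Sen1-AID strain's replicate 2, with no peak in replicate 1. The Sen1-AID peaks ran at least 1038 bp past the farther WT peak, over TRS31 and into PRP3 on the opposite strand. SNR9, a box H/ACA guide, went from 678 and 629 bp in WT to 2099 and 1772 bp in Sen1-AID, the widest such margin at 1094 bp. SNR30, a box H/ACA RNA essential for small-subunit rRNA processing, went from 851 and 717 bp to 3758 and 1249 bp. SNR17A, 1 of the pair of genes for U3, did not separate, at 869 and 787 bp in WT and 961 and 735 bp in Sen1-AID.

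Across the 34 members, the margin between the nearer Sen1-AID library and the farther WT library ran from 11 to 1094 bp, with a median of 453.5 bp. Of members whose next gene lies on the same strand 18 of 31 were among the 34, and of those with the next gene on the opposite strand 16 of 29. These totals include the 8 members that were not measured in this comparison.

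**Figure D2:**
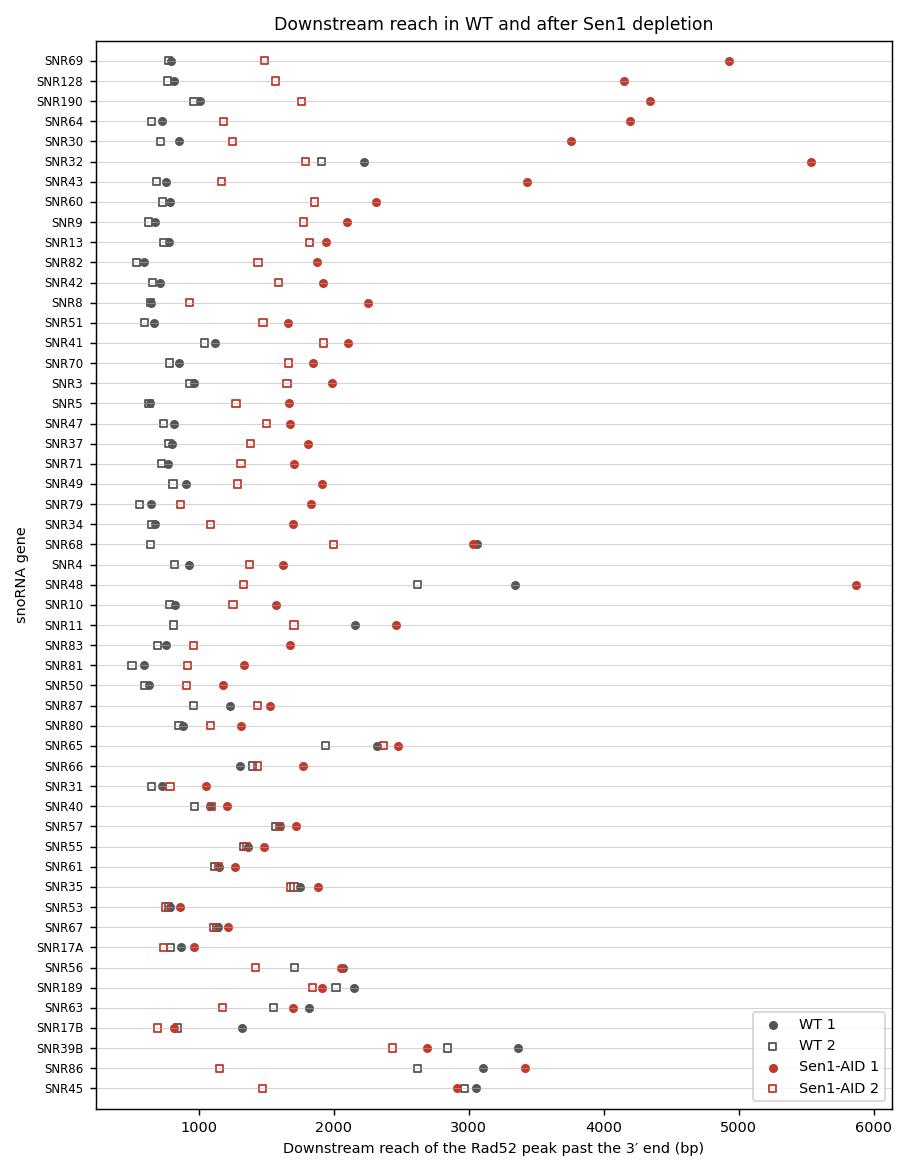
Downstream reach in bp past the 3′ end for the 52 members with a peak in all WT and Sen1-AID libraries, 1 row per gene, ordered by the difference of group means; grey marks are WT and red marks Sen1-AID, with circles for replicate 1 and squares for replicate 2. Red marks lie to the right of both grey marks in 34 genes and to the left of both in 4.

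Sen1 depletion without RNase H was compared in h1D-h2D Sen1-AID against h1D-h2D. Downstream reach was longer in 20 of 30 measured members, or 66.7%, but 54.4% of all 428 measured genes were longer too. It was shorter in 5 members, or 16.7%, against 22.9% of all genes. The other 30 members could not be measured, mostly for lack of a peak in h1D-h2D Sen1-AID. The count of shorter members was 8 without h1D-h2D Sen1-AID replicate 1, with no share of all genes computed beside it. With each library's median subtracted, 10 members were longer and 19 shorter, so these counts depend on the scale used. No share of all genes is set beside them, so they do not show whether members differed from all genes on that scale. SNR10, SNR128, SNR66 and SNR3 were longer here, and so was SNR8, a box H/ACA guide, at 2536 and 2338 bp against 614 and 555 bp. SNR33, a box H/ACA guide with no peak in h1D-h2D, reached 5356 and 5452 bp, against 738 and 671 bp in WT.

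RNase H loss alone was compared in h1D-h2D against WT. There, 0 of 51 members were longer, where 1.96% of all 1171 genes were, and 8 were shorter, or 15.7%, where 17.0% of all genes were. The median difference was −48.5 bp over the members and −32.5 bp over all genes. Single libraries moved these counts. The shorter count was 45 without h1D-h2D replicate 1 and 33 without WT replicate 2. The longer count was 19 without h1D-h2D replicate 2 and 6 without WT replicate 1. Over the 4 ways of leaving out a library, 2.67% to 31.9% of all genes were longer. The share of all genes shorter was not computed there.

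After Top1 depletion without RNase H, no member had both libraries reach further downstream than both h1D-h2D libraries. In h1D-h2D Top1-AID against h1D-h2D, 0 of 32 members were longer, where 5.15% of all genes were. Shorter reach was counted in 16, beside 50.5% of all 408 genes; the count was 31 without h1D-h2D Top1-AID replicate 1, 28 without h1D-h2D replicate 2 and 30 with library medians subtracted. The longer count was 4 without h1D-h2D Top1-AID replicate 2 and 1 without h1D-h2D replicate 1. Over the 4 ways of leaving out a library, 5.45% to 20.0% of all genes were longer. The share of all genes shorter was not computed there. In Top1-AID, a single library, 3 of 50 members lay above both WT libraries, where 8.54% of 1183 genes did, and 18 lay below, or 36.0%, where 55.5% did. Set directly against each other, h1D-h2D Sen1-AID reached further than h1D-h2D Top1-AID in 19 of 23 members, or 82.6%, where 67.9% of all 265 genes did. Of these 23 members 0 were shorter, where 7.17% of all genes were.

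**Figure D3:**
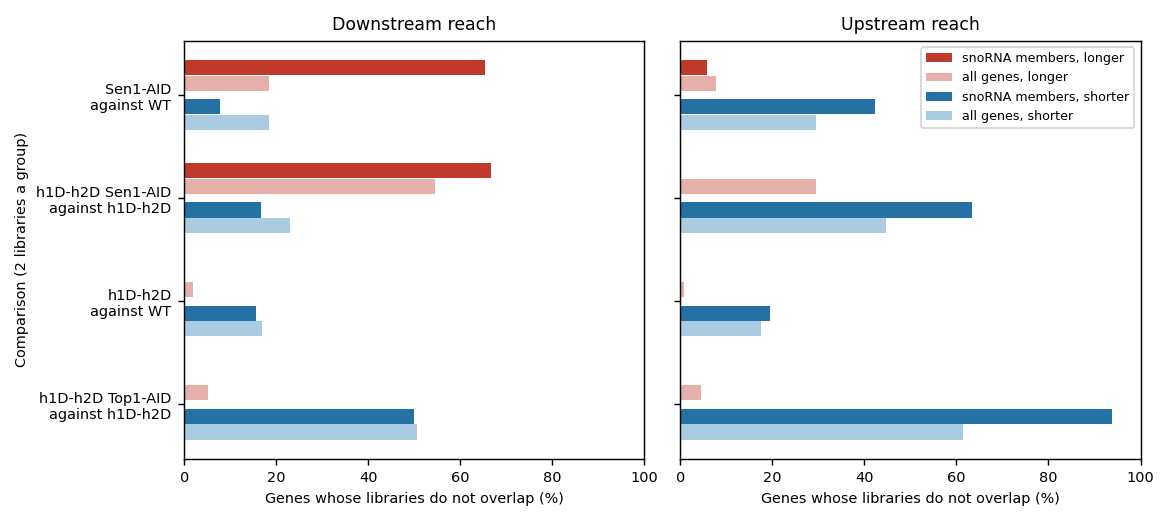
Percent of measured genes whose libraries in the first group all lie beyond those of the other group, for downstream (left) and upstream (right) reach in 4 comparisons of 2 libraries against 2; dark bars are the snoRNA members, pale bars all genes, red longer and blue shorter. The widest gap between members and all genes for longer reach is 65.4% against 18.4%, downstream in Sen1-AID against WT.

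On the 5′ side of the same peaks no member was called longer. In the upstream test over the 11 auxin libraries, 0 of 23 members were longer, where 16 of 224 genes, or 7.14%, were. Each of the 16 had an upstream difference equal to the downstream difference of a snoRNA or tRNA gene called longer. MMS2, LIN1, DAS1, RPA34, PAM16, EFM3, KSH1 and BRE5 shared that peak end with a called member. MMS2 and SNR10, for example, both differed by 2658 bp. The 7.14% therefore counts those downstream ends again. No gene was called shorter by the exact permutation test with adjustment over all genes, and 16 were at an unadjusted p under 0.05, none of them a member. The median upstream difference was −143 bp over the members and −24.7 bp over all tested genes. The 16 longer genes were lost when any single library was left out.

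In Sen1-AID against WT, upstream reach was longer in 3 of 52 members, where 7.82% of all genes were. It was shorter in 22, or 42.3%, where 29.4% of all genes were. The 3 longer members were SNR189, SNR31 and SNR5, in 2 regions. Their upstream ends are the downstream ends of SNR65, SNR5 and SNR31 under the same peaks. In h1D-h2D Top1-AID against h1D-h2D it was shorter in 30 of 32 members, or 93.8%, where 61.5% of all genes were, and longer in 0, where 4.41% were. In h1D-h2D Sen1-AID against h1D-h2D it was shorter in 19 of 30 members, or 63.3%, where 44.6% of all genes were, and longer in 0, where 29.4% were. RNase H loss alone gave 10 shorter of 51, or 19.6%, where 17.6% of all genes were, and 0 longer, where 0.854% were. In the Top1-AID library 32 of 50 members lay below WT, or 64.0%, where 50.3% of all genes did, and 5 above, where 7.27% did. Between the combined mutants, upstream reach was longer with Sen1 depleted in 10 of 23 members, or 43.5%, where 51.7% of all genes were, and shorter in 1, where 11.3% were. The difference between members and all genes was not tested in any of these contrasts. At SNR10 upstream reach was 565 and 541 bp in WT, 525 and 377 bp in Sen1-AID, and 455 and 555 bp in the h1D-h2D Sen1-AID strain, so its added length lay on the downstream side. At SNR13 it was 1884 and 1731 bp in WT and 1847 and 984 bp in Sen1-AID.

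Median downstream reach over the covered members was 856 and 781 bp in WT and 1877 and 1344 bp in Sen1-AID. Over all covered genes it was 753 and 667 bp in WT and 782 and 627 bp in Sen1-AID. In h1D-h2D Sen1-AID the members' medians were 1159 and 1280 bp and those of all genes 1226 and 1101 bp. The members thus stood above the rest in Sen1-AID, whereas in h1D-h2D Sen1-AID both were high.

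**Figure D4:**
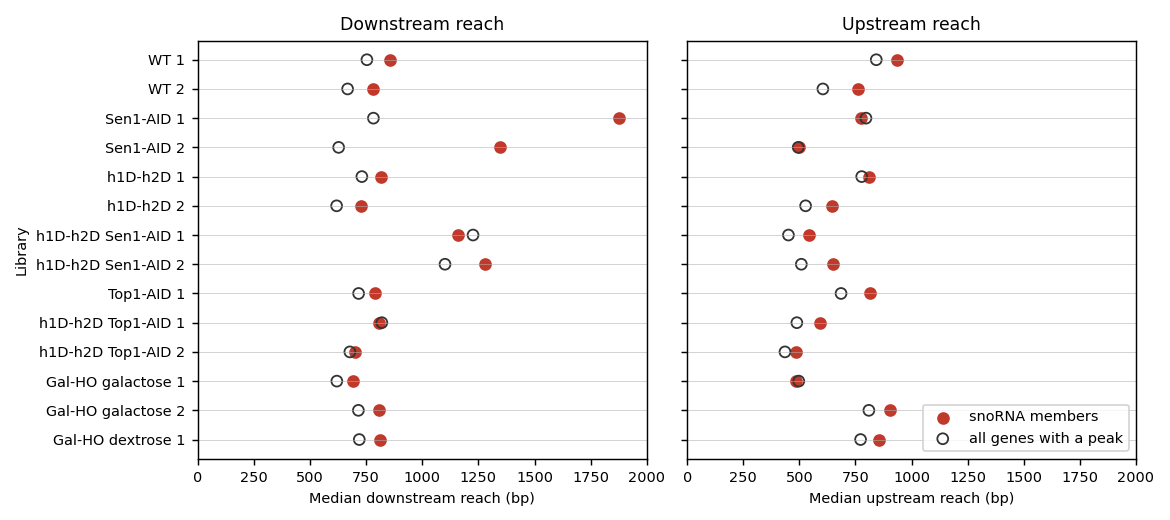
Median downstream (left) and upstream (right) reach in bp in each of the 14 libraries; filled red points are the snoRNA members with a peak and open points all genes with a peak. The members' downstream medians in Sen1-AID, 1877 and 1344 bp, lie far to the right of those of all genes, 782 and 627 bp.

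Most snoRNA genes carried a Rad52 peak already in WT, where each library covered 55 of the 60. Sen1-AID covered 59 and 56 of them. The h1D-h2D libraries covered 55 and 52, and the Top1-AID library 50. The combined mutants covered fewer: the h1D-h2D Sen1-AID pair held 34 and 37, and the h1D-h2D Top1-AID pair 35 and 32. The mean was 34.5 ± 2.08 genes (SD, n = 4) in the combined mutants and 54.6 ± 2.88 (SD, n = 7) in the other auxin libraries. These counts move with the length of the lists. With each list shortened to 254 peaks, the other auxin libraries covered 41.3 members on average and the combined mutants 34.25.

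Of the 55 members with a peak in both WT libraries, 52, or 94.5%, had a peak in both Sen1-AID libraries, where 63.7% of the 1405 genes covered in WT did. In h1D-h2D Sen1-AID 32, or 58.2%, had peaks in both libraries, beside 32.6% of all genes, and in h1D-h2D Top1-AID also 32, beside 29.9%. In h1D-h2D it was 51, or 92.7%, beside 83.3%.

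No gene passed the adjusted threshold for presence in Fisher's exact test of the combined mutants against the other 7 auxin libraries, over 2457 genes. The smallest adjusted p was 0.0524. At an unadjusted p under 0.05, 482 genes, or 19.6%, were less often covered in the combined mutants, and 12 of 60 members, or 20.0%, were among them, so the members' share was near that of all genes. The 7 genes covered more often, 0.285%, held no member. Without Sen1-AID replicate 2, 305 genes and 6 members passed the adjusted threshold as less often covered. With the lists shortened to 254 peaks, 106 of 1714 genes and 3 of 57 members were less often covered at an unadjusted p under 0.05.

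SNR5, SNR31, SNR43, SNR68, SNR79 and SNR81 had a peak in all 7 other auxin libraries and in no combined mutant, as did 142 of the 2457 genes tested. SNR68 and SNR79 are box C/D guides and the other 4 are box H/ACA guides. SNR5 and SNR31 lie under the same peak. At SNR43 downstream reach was 756 and 684 bp in WT, 3429 and 1170 bp in Sen1-AID, 786 and 609 bp in h1D-h2D and 667 bp in Top1-AID. It was longest in Sen1-AID and had no value in the combined mutants.

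Peaks at 4 members appeared in Sen1-AID and in no other library, a pattern that 154 genes had in all. SNR161 (1463 and 1144 bp downstream), SNR36 (3140 and 786 bp) and SNR85 (1296 and 940 bp), all box H/ACA guides, were covered in both replicates. SNR84, also box H/ACA, was covered in replicate 1 only, at 3964 bp. SNR62, a box C/D guide, had peaks in both h1D-h2D libraries and neither WT library, and SNR33 the opposite; over all genes these counts were 17 and 44.

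Between the combined mutants, some members were covered in a single strain. SNR8, SNR9, SNR33, SNR35, SNR42, SNR45, SNR83 and SNR86 were covered in each h1D-h2D Sen1-AID library but in neither h1D-h2D Top1-AID library. SNR39B, SNR53 and SNR67 had the opposite pattern. Over all genes the counts were 266 and 140, so the members, at 8 and 3, leaned the same way as the rest. Neither strain covered 16 members in any library, and some of these, such as SNR161 and SNR84, had no peak in WT either. Of the 55 members covered in both WT libraries, 29.1% had no peak in h1D-h2D Sen1-AID, beside 54.1% of the 1405 genes covered in WT. In h1D-h2D Top1-AID the shares without a peak were 36.4% and 54.1%. Of the first 8 members named here, all but SNR45 are box H/ACA guides. SNR45 is a box C/D RNA that serves acetylation of the small-subunit rRNA.

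The authors' score, used only as a percentile rank within each list, had a mean of 91.1 at SNR56 over 14 libraries, from 85.0 to 96.4. For SNR17A the mean was 90.9 over 13 libraries. It stood above SNR56 in WT, at 99.1 and 97.9 against 91.4 and 94.2, and its lowest value was 22.0 in h1D-h2D Sen1-AID replicate 2. SNR39B had 89.5 over 12 libraries, SNR11 88.6 over 13, and SNR189, under the peak of SNR65 in WT, 88.2 over 11. SNR84 had 90.8 in its single library. The means rest on different sets of libraries, so they do not order the genes, and percentiles from lists of different lengths cannot be compared between groups.

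**Figure D5:**
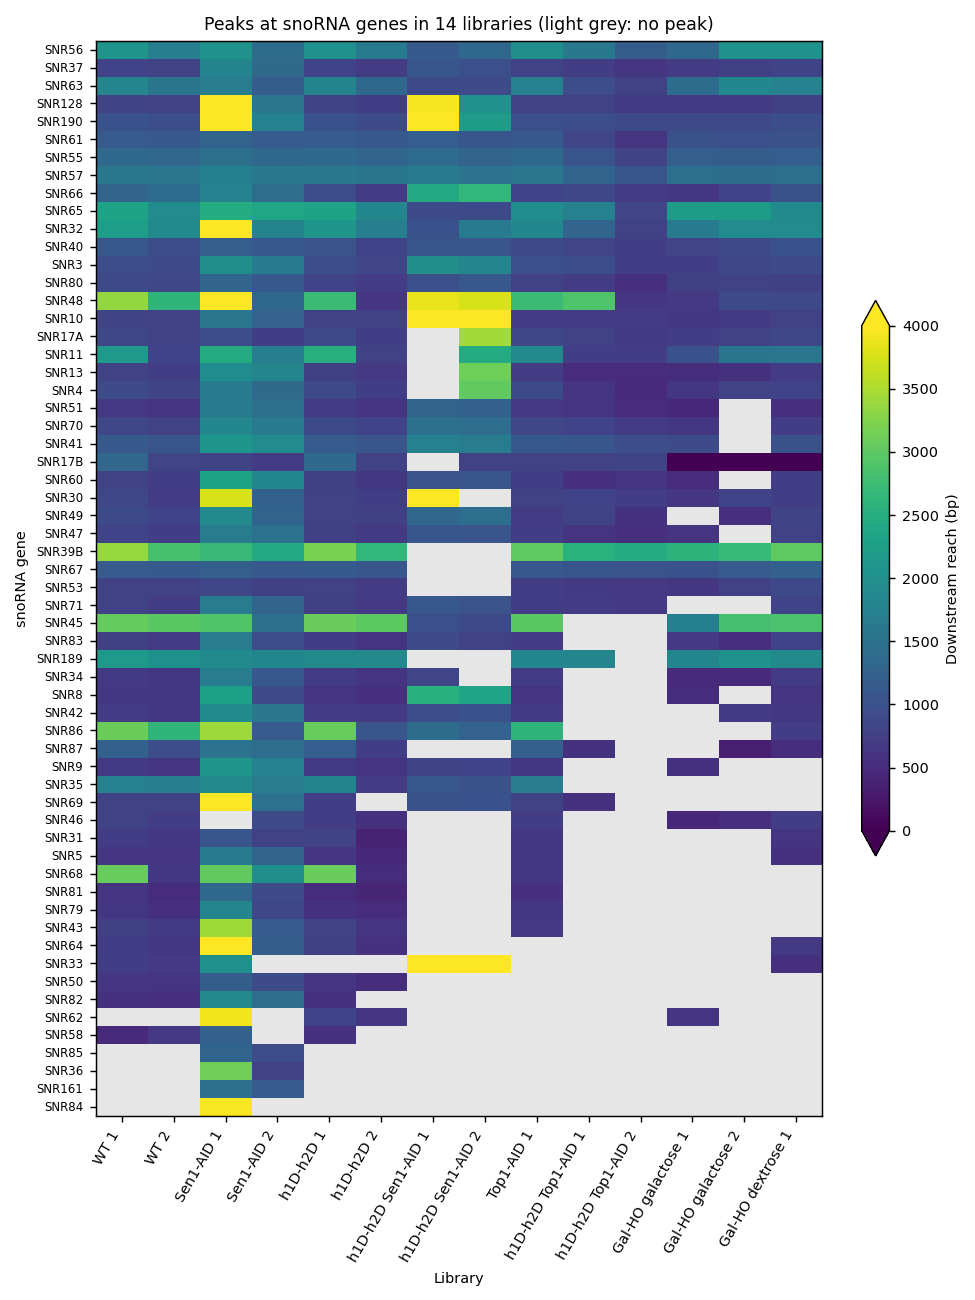
Downstream reach in bp (colour as in the key, with values beyond it at the end colours) for the 60 members in the 14 libraries, ordered by the number of libraries with a peak; light grey marks no peak. The top 16 genes are covered in all 14 libraries, and the bottom 4 in Sen1-AID only.

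Across the HO comparison, Gal-HO dextrose covered 45 members and the galactose libraries 38 and 33, beside 1598, 1213 and 1576 genes in all. SNR5, SNR31, SNR33, SNR64, SNR71 and SNR86 had a peak in dextrose and in neither galactose library, and 0 members had peaks in both galactose libraries alone; over all genes the counts were 167 and 80. Downstream reach was longer in galactose in 2 of 30 members, where 10.7% of 1037 genes were, and shorter in 18, where 44.2% were. Upstream reach was longer in 2 and shorter in 21, where 9.84% and 47.7% of all genes were. Dextrose has a single library, so this contrast has no replicate check on that side.

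The proteins that act with these RNAs were looked at from lists of 8 snoRNP proteins, 11 termination and 3′ processing factors and 5 assembly and capping factors. Among the snoRNP proteins, NOP1 (the box C/D methyltransferase) and SNU13 had a peak in both WT libraries, and 5 had none in any library. Among the termination factors NRD1, RNT1, RRP6, SSU72 and PTI1 had one in both WT libraries, and 4 had none anywhere. SEN1 itself was covered in 1 Sen1-AID library alone. The assembly and capping genes had no peak in any library. None of these 24 genes had a peak in all 11 auxin libraries, so none entered the test of reach; 3 termination factors, NRD1, RNT1 and PTI1, had no peak in any of the 4 combined mutant libraries and were less often covered at an unadjusted p under 0.05 in Fisher's exact test, where 19.6% of the 2457 genes tested were.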

How the data were processed

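Rad52 immunoprecipitates from 14 yeast libraries were sequenced, and the deposited file of each library is a peak list with chromosome, start, end, name and score. Bowtie2, MACS2 and the build sacCer3 are named in the submitters' processing notes; versions are not given in the sources used here. The score of each peak is the authors' own value, on a scale not given in the sources used here, with a minimum of 50.02. It served here only as a rank inside each list. Whether a control library entered peak calling, and the read depth, are not known, so reach and presence may move with depth. Each list comes from 1 library, so replicates were called separately.

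From these lists, peak overlap with the 6431 nuclear genes of RefSeq R64 (at least 1 bp), score percentile and reach past each gene end were computed with Python 3.11.15, pandas 2.3.3, numpy 2.4.6 and scipy 1.17.1; 5 mitochondrial peaks were left out. Strand came from the locus tag, and 1 gene without a strand was not measured. Reach was tested per gene by an exact two-sided permutation of library means, 4 against 7 (330 splits), and presence by Fisher's exact test, both with Benjamini-Hochberg adjustment over all genes measured and a threshold of 0.05. The splits treat replicates of a strain as independent. The script was tested on simulated data. Several comparisons share control libraries.

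The members and lists were chosen with earlier results of these data known. Members named are the 12 with the largest and the 5 with the smallest differences in downstream reach, those in at most 3 of 14 libraries, those in all 7 other auxin libraries and no combined mutant, and the 6 with the highest mean percentile, with members sharing their peak. Other named members were chosen after their values were seen, as were the measures of the next gene downstream. Alternatives were a stricter score limit, equal list lengths, joined peaks, coverage of at least 50% of the gene, strain means, a replicate block, library medians subtracted, shared peaks left out, a looser rule for missing peaks, and each library left out. Sequence motifs were not analysed here.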

Additional observations from a re-analysis of the deposited data

Results flagged for a closer look

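SNR65, a box C/D methylation guide gene on chromosome III, had opposite differences in downstream reach after Sen1 depletion with and without RNase H. In Sen1-AID the mean reach exceeded that of WT by 296.5 bp, with both libraries above both WT libraries. In h1D-h2D Sen1-AID it was below that of h1D-h2D, with a difference of −1183.5 bp, and both libraries lay below both h1D-h2D libraries. The difference between these 2 contrasts was not tested. In h1D-h2D Top1-AID, at 1761 and 842 bp, reach was also below both h1D-h2D libraries, with a mean difference of −784 bp. The peak of SNR65 in WT also covers SNR189, which had no peak in h1D-h2D Sen1-AID.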

How the results depend on the processing

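With only peaks scoring at or above the pooled median (194), 10 of 38 tested genes and 1 of 2 tested members reached further downstream, 0 genes upstream, and 311 genes were less often covered at an unadjusted p under 0.05. Then 21 of 36 measured members lay above WT in Sen1-AID, where 27.6% of all genes did. In h1D-h2D Sen1-AID 8 of 15 were longer, where 46.0% of all genes were, and 3 were shorter. In h1D-h2D Top1-AID 5 of 10 were shorter. On average 17.0 members were covered in the combined mutants and 43.4 in the other auxin libraries. With lists cut to 254 peaks, 26 of 113 genes were longer downstream and 0 upstream. Then 106 of 1714 genes and 3 of 57 members were less often covered (unadjusted). In Sen1-AID 20 of 33 measured members lay above WT, where 20.3% of all genes did, and 2 below. In h1D-h2D Sen1-AID 13 of 22 were longer, where 47.4% of all genes were. The other auxin libraries covered 41.3 members on average and the combined mutants 34.25. Shares of all genes with shorter reach were not computed under these settings. Requiring at least 50% of the gene gave 0 genes longer upstream and 270 less often covered (unadjusted). With peaks in at least 3 of 4 and 5 of 7 libraries, 0 genes were longer upstream.

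With library medians subtracted, 26 genes were longer and 3 shorter downstream, and 8 members longer. In h1D-h2D Sen1-AID 10 members were longer and 19 shorter, in h1D-h2D against WT 4 were longer, and in h1D-h2D Top1-AID 30 were shorter. No share of all genes is set beside these member counts. SNR61 and SNR55 turned to −65.1 bp. With shared peaks left out, members shorter were 2 in Sen1-AID, 1 in h1D-h2D Sen1-AID, 5 in h1D-h2D and 6 in h1D-h2D Top1-AID. This setting also takes members out of the measured set, so the counts can fall for that reason alone. The share of all genes shorter was not computed under it. Joining peaks within 1 kb gave 50 genes longer downstream, and 5 members below WT in Sen1-AID; the members called longer still numbered 14. With strain means, 2 against 4, the smallest possible p is 0.0667, so the 0 genes and 0 members then called downstream, upstream or for presence say nothing of stability.

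The labels do not say whether replicate numbers pair the libraries across groups. Over 10 pairs of groups the correlation of same-numbered deviations ran from −0.134 to 0.656 (median 0.136), and 5 exceeded 0.1. The highest was between WT and h1D-h2D, so deviations were shared between some groups and not between others. With the replicate block, 47 genes and 14 members were longer downstream and 0 genes upstream.

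Leaving out each library in turn gave 0 to 59 genes longer and 0 to 5 shorter downstream, 0 to 14 members longer, and 0 genes longer upstream. For presence it gave 0 to 305 genes and 0 to 6 members less often covered and 0 to 1 gene more often covered. Members above WT in Sen1-AID numbered 34 to 47, beside 18.6% to 51.4% of all genes, and below 4 to 13. In h1D-h2D they numbered 0 to 19, beside 2.67% to 31.9%, and 8 to 45. In h1D-h2D Sen1-AID against h1D-h2D they numbered 21 to 25, beside 55.5% to 68.7%, and 5 to 8. In h1D-h2D Top1-AID they numbered 0 to 4, beside 5.45% to 20.0%, and 16 to 31. The share of all genes below was not computed with a library left out. The difference at SNR65 ran from −462 to 62.9 bp and was positive without h1D-h2D Sen1-AID replicate 1 or 2 (62.9 and 62.2 bp). The cause of these changes was not tested. Unknown read depth limits every count of missing peaks.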

Other observations

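SNR17B, the second gene for U3, had peaks that ended inside the gene in the Gal-HO strain, with downstream reach of −323 and −209 bp in galactose and −213 bp in dextrose. In the auxin libraries of the other background its peak ran 695 to 1374 bp past the 3′ end, and h1D-h2D Sen1-AID replicate 1 had none. The libraries of the Gal-HO strain differ from the others in strain background and treatment together.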
